A study of Mus musculus with 8 samples.

Results

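Mitochondria exchange metabolites with the cytosol through channels and carriers, and the RNA of 7 genes for these proteins was measured in mouse tongue: the outer-membrane porins Vdac1, Vdac2 and Vdac3, the phosphate carrier Slc25a3, the adenine nucleotide carriers Slc25a4 and Slc25a5, and the uncoupling protein Ucp3. They were picked by name and function from the 19857 genes of the count table; no threshold on their values was used, but earlier results of these data were known when they were picked. All 7 were found there, and 6 passed the filter on low counts, which left 5066 genes in all. The libraries came from the middle region of tongues of female mice aged 12 months, 4 wild type (WT) and 4 heterozygous for the A17 allele of Pabpn1 (PABPN1A17/+, here A17/+). PABPN1 is a nuclear protein that binds poly(A) tails, A17/+ mice are used as a model of oculopharyngeal muscular dystrophy, and the labels name no strain or treatment for either group. Each library holds RNA from cryosections of a whole tongue region, so that it mixes muscle, epithelium and other cells, and fewer cells of a type cannot be told apart from less RNA per cell. Values are counts of unique molecular identifiers (UMIs) read near the 3′ end of polyadenylated RNA. Levels are CPM, counts scaled to a common library total adjusted by TMM factors, and errors are SD over 4 libraries.

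Porins form the pores of the outer membrane through which ATP, ADP, phosphate and other small molecules pass. At the inner membrane the adenine nucleotide carriers, of the SLC25 family, swap ATP made in the matrix for ADP, and the phosphate carrier brings in the phosphate that ATP synthase joins to it. In muscle Slc25a4 (ANT1) is the main nucleotide carrier and Slc25a5 (ANT2) is typical of dividing and non-muscle cells, while Ucp3 is a muscle carrier tied to fatty acid use.

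Sequence near the start sites is shown because the same short string lies there in Vdac1, Slc25a3 and Slc25a4. Ucp3 is printed beside them as a window without the string, and a link between the string and RNA levels was not tested. RefSeq windows on GRCm38.p6, from 250 bases before to 50 after each start, were matched for 5 of the 7 members, and Vdac1 had a window for each of 2 starts. The windows of Vdac2 and Vdac3 were not analysed here. The string CCGGAAG, the core bound by ETS factors, lay on the coding strand 105 bases before a start of Vdac1, 130 before that of Slc25a4 and 175 before that of Slc25a3. The GENCODE starts differ from these RefSeq starts: counted from them, the string lay 114 bases before the start of Vdac1 and 83 before that of Slc25a3, but 92 bases after that of Slc25a4, inside the annotated gene, so that only the 30 bases around it are printed for Slc25a4. The windows of Slc25a5 and Ucp3 did not hold it. Among all 32851 windows, 8.86% held it on either strand. In the lines below, which read 5′ to 3′ along the coding strand, capitals mark CCGGAAG and in Ucp3 the E-box CAGCTG (in 16.3% of windows).
Vdac1, chr11:52360601-52360850, plus strand: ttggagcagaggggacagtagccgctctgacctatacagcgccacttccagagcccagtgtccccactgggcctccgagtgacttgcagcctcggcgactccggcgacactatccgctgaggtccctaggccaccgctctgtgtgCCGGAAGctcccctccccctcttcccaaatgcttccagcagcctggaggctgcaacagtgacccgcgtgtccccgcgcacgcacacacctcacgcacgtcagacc
Slc25a3, chr10:91124060-91124217, minus strand: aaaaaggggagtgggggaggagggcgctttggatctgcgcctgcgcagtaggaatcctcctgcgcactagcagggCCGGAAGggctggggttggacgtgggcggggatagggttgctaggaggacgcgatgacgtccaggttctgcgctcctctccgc
Slc25a4, chr8:46211174-46211203, minus strand: acccctagctcCCGGAAGcgtcttcgcccc
Ucp3, chr7:100472741-100472989, plus strand: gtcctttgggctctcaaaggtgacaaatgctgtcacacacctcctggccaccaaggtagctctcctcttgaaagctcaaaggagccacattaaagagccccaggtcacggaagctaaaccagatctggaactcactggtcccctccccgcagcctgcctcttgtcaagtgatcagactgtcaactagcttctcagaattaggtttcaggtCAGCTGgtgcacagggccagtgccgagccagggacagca

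Other strings were searched on both strands in the same windows. The half-site AAGGTCA of oestrogen-related receptors was found in 1 of the 5 members, Vdac1, at its other start (4.72% of all windows), and the Sp1 string GGGCGG in 4 of 5 members (35.7% of all windows). Counted from the GENCODE starts, the half-site lay 631 bases after that of Vdac1, inside the annotated gene. The Sp1 matches lay 490 to 592 bases after the start in Vdac1 and 250 after in Slc25a4, but 60 before in Slc25a3 and 68 before in Slc25a5. The cyclic AMP response element TGACGTCA was in none of the 5 members and in 1.79% of all windows. A match is only a match of letters.

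The libraries also differed in depth and in the markers of several cell types. Totals ran from 205696 to 465014 counts in WT and from 395061 to 485326 in A17/+. Summed striated muscle markers ran from 26228 to 37948 CPM in WT and from 41265 to 51193 CPM in A17/+. Of these markers, 7 of 10 passed the test as higher and 0 as lower, against 6.34% and 2.61% of all tested genes. Transcripts of the mitochondrial genome made up 4.17% to 6.43% of each WT library and 7.24% to 10.98% of each A17/+ library, and transcripts under 1000 nt 4.81% to 6.94% and 6.71% to 9.69%. Tongue epithelium markers summed to between 10943 and 12304 CPM in WT and between 8587 and 17977 CPM in A17/+, with 0 of 11 higher and 1 lower. Endothelial markers had 0 of 6 higher or lower by edgeR, DESeq2 or limma-voom, and 0 at an unadjusted p under 0.05 (399 to 417 CPM in WT, 406 to 520 CPM in A17/+), and fibroblast markers 3 of 7 higher and 0 lower (669 to 878 and 983 to 1669 CPM). The only adipocyte marker tested, Fabp4, and the only red blood cell marker tested, Hbb-bs, were higher; the adipocyte list summed to 9.70 to 21.7 CPM in WT and 71.3 to 121 CPM in A17/+, and the red blood cell list to 20.1 to 32.3 and 100.3 to 1333 CPM. Leukocyte markers had 0 of 2 higher by edgeR, DESeq2 or limma-voom, and 1 at an unadjusted p under 0.05 (159 to 403 and 354 to 455 CPM). Salivary gland markers were at 2057 CPM in WT 1 and between 0 and 57.0 CPM in every other library. Every member of these lists that the table holds had counts in at least 1 library. WT 1 was level with A17/+ 1 for the member Vdac2, and lay just above it for the carrier Slc25a12, as given below. The part of these differences in the results was not tested beyond the covariates named below. Pabpn1 itself had 4 to 15 counts per WT library and 5 to 11 per A17/+ library, and 3′ counts do not read the altered stretch of the protein.

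Vdac1, Slc25a3 and Slc25a4, the 3 members that reached the filter's level in all 8 libraries, rose in A17/+ tongue. Of the 6 members tested, 4 rose (Vdac1, Vdac2, Slc25a3 and Slc25a4) and 0 fell at an adjusted p under 0.05 by edgeR's quasi-likelihood test, against 6.34% of all tested genes that rose and 2.61% that fell. All 4 A17/+ libraries lay above all 4 WT libraries in CPM for 5 of the 6, against 8.57% of tested genes. Of these 5, Vdac2 was level in the nearest libraries of the groups, WT 1 and A17/+ 1, with 22 counts in each. In the log2 values that the authors deposited, Vdac2 was higher in WT 1 (5.72) than in A17/+ 1 (5.70), so its groups overlapped there. The members Vdac3 and Slc25a5 did not pass, with log2 fold changes of 0.88 and 1.23, and Ucp3 lay below the filter. Together the 7 genes summed to 914, 679, 623 and 753 CPM in the WT libraries (in order of number, here and below) and to 1369, 3234, 2480 and 2959 CPM in A17/+. The A17/+ libraries all lay above the WT libraries in this sum, and A17/+ 1 was the lowest of its genotype. The filter asks for 24.6 CPM in 4 libraries. In WT, Vdac2 reached it in 1 library, Vdac3 in 3 and Slc25a5 in 2, while all 4 A17/+ libraries did, so these genes depended on the A17/+ libraries to be tested. The counts over the 6 tested members are therefore a description and no support for a rise of the 7 genes.

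**Figure D1:**
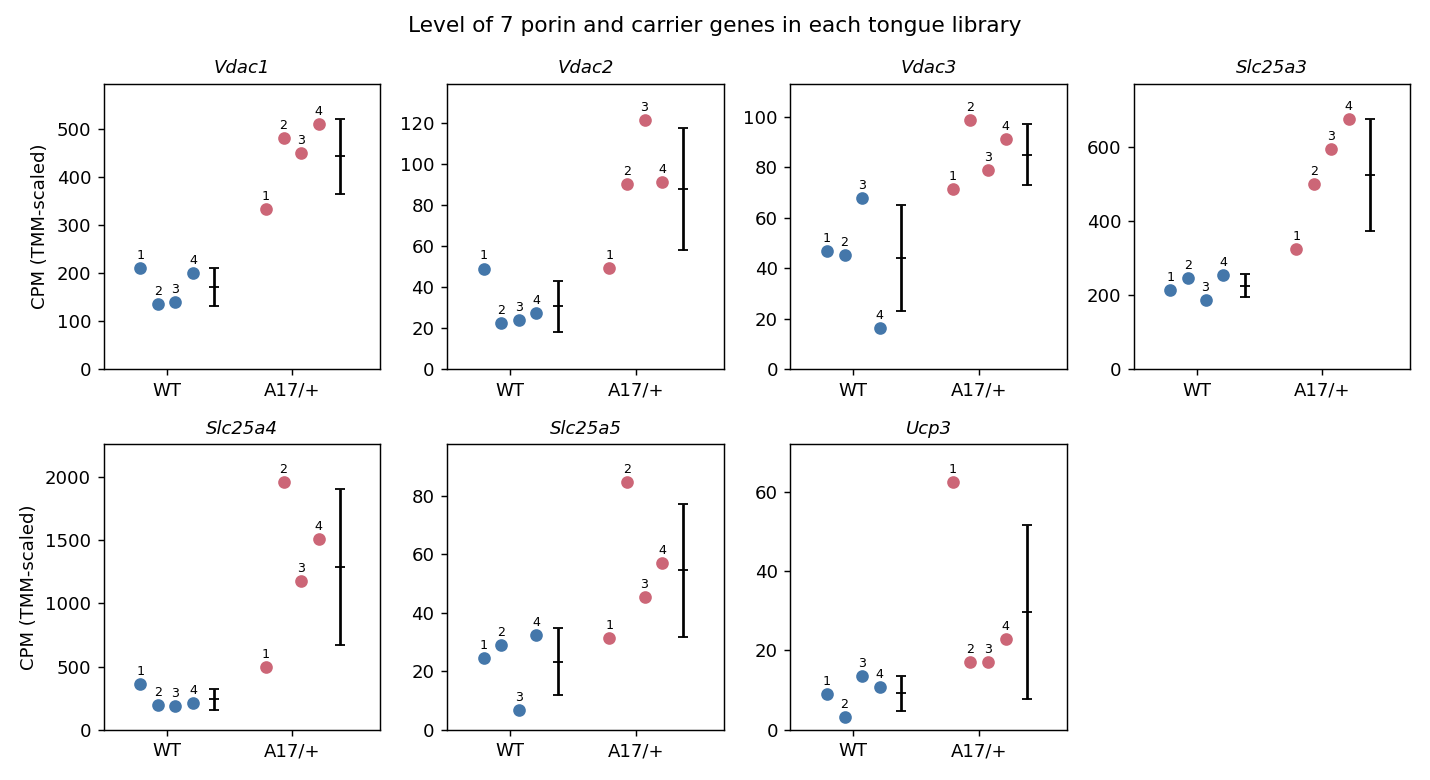
Level of each of the 7 genes in CPM (vertical axes, linear from 0, with a scale per gene) in 4 WT libraries (blue) and 4 A17/+ libraries (red), numbered by library, with the mean and SD in black. A17/+ 1 is the lowest A17/+ library for 6 genes and the highest for Ucp3.

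Vdac1, the major porin, encodes the pore to which hexokinase docks on the mitochondrial surface. The gene (ENSMUSG00000020402, mm10 chromosome 11, 52360860 to 52389397, plus strand) reached 209, 136, 139 and 200.5 CPM in WT and 332, 480, 449 and 510.2 CPM in A17/+, from 37 to 94 counts per library in WT and 149 to 179 in A17/+. The groups did not overlap, and the lowest A17/+ library was 1.59 times the highest WT library. It rose 2.58-fold, from 171 ± 39.3 to 443 ± 77.9 CPM (SD, n = 4), a log2 fold change of 1.37 with an SE of 0.20 and an edgeR adjusted p of 0.00192. It ranked 9th by p among the 5066 genes.

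Vdac2, a porin known in mouse cells to hold the cell death protein BAK in check, had fewer counts. Vdac2 (ENSMUSG00000021771, chromosome 14, 21825238 to 21845879, plus strand) was counted 22, 7, 7 and 5 times in WT and 22, 32, 43 and 32 times in A17/+, or 49.0, 22.6, 23.7 and 27.1 CPM against 49.0, 90.4, 121 and 91.2 CPM. WT 1 and A17/+ 1 were level, and the other libraries of each group lay well apart. Vdac2 rose 2.69-fold (log2 fold change 1.43, 95% interval 0.71 to 2.14, edgeR adjusted p = 0.0145). Its call was lost when WT 2 (adjusted p = 0.0554), WT 3 (0.0623) or A17/+ 3 (0.0606) was left out, and by limma-voom (0.0652), at log2 fold changes from 1.24 to 1.33. With both libraries numbered 1 left out the log2 fold change was 2.05.

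Vdac3, the third porin, whose loss in mice impairs sperm movement, did not pass the test. Vdac3 (ENSMUSG00000008892, chromosome 8, 22577075 to 22593813, minus strand) had 46.8, 45.2, 67.7 and 16.3 CPM in WT and 71.3, 98.8, 79.1 and 91.2 CPM in A17/+. The groups did not overlap, though WT 3 reached close to A17/+ 1, and WT 4 rested on 3 counts. The log2 fold change was 0.88 (fold 1.84, 95% interval 1.19 to 2.84, edgeR adjusted p = 0.0731). It was 0.36 (adjusted p = 0.460) once a trend with transcript length was removed from each library. The principal transcript of Vdac3 has 1354 nt.

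The proportions of the 3 porin genes were compared within libraries. Vdac1 made up 68.6%, 66.7%, 60.3% and 82.2% of porin counts in WT and 73.4%, 71.7%, 69.1% and 73.7% in A17/+. The A17/+ values lay inside the WT range. The 95% Wilson intervals, which cover counting error only, ran from 48.4% to 71.1% for the lowest value, WT 3, and from 68.7% to 90.7% for the highest, WT 4. Vdac2 took 12.1% ± 2.64 in WT and 14.1% ± 3.32 in A17/+, and Vdac3 took 18.4% ± 9.71 and 14.0% ± 1.60 (SD, n = 4). The mean log2 ratio of Vdac1 to Vdac2 differed between the genotypes by −0.005 (95% interval −0.81 to 0.65, two-sided exact permutation p = 0.971, adjusted over 5 ratios 0.971), and that of Vdac1 to Vdac3 by 0.37 (−1.09 to 1.44, exact permutation p = 0.457, adjusted 0.571). The intervals are wide, and a p above the threshold does not show that the porin mix was alike.

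**Figure D2:**
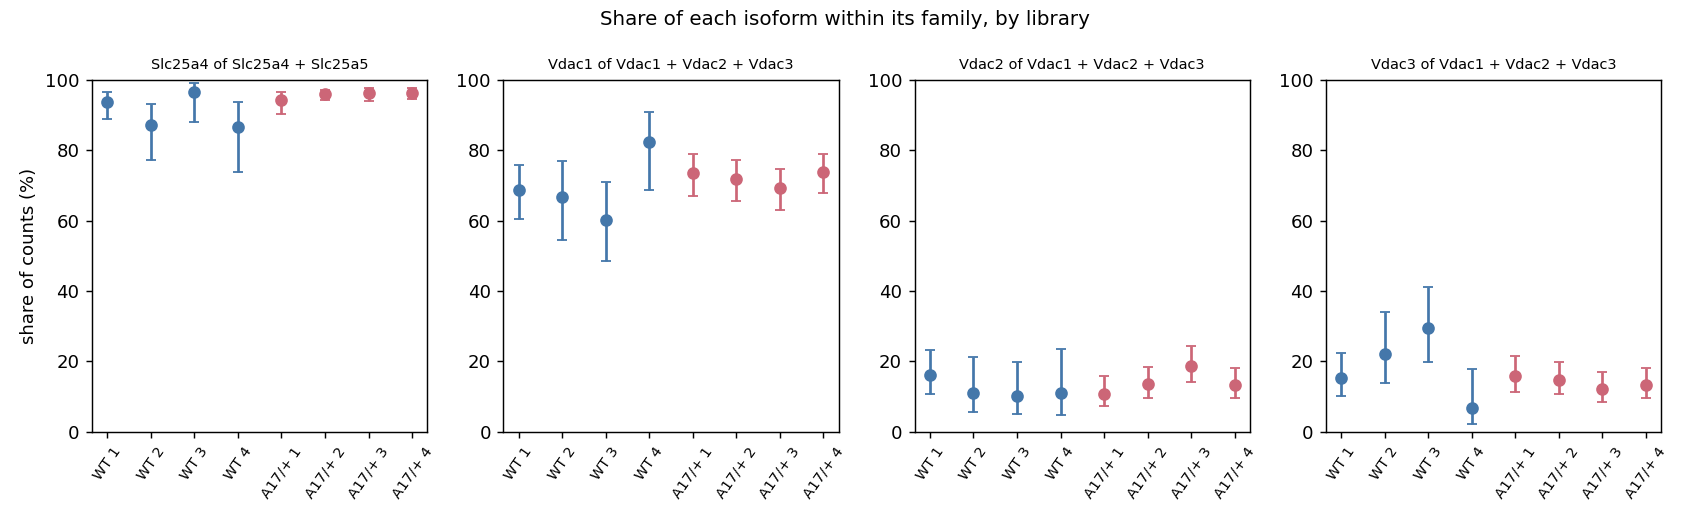
Share of counts (%) of Slc25a4 within the pair of adenine nucleotide carriers and of each porin within the 3 porins, by library, with 95% Wilson intervals. The porin shares of the A17/+ libraries (red) overlap those of WT (blue), and Slc25a4 holds at least 86.7% in every library.

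Slc25a3, the phosphate carrier, feeds ATP synthase. The gene (ENSMUSG00000061904, chromosome 10, 91116574 to 91124059, minus strand) had 214, 246, 186 and 255 CPM in WT and 323, 499.9, 593 and 676 CPM in A17/+, from at least 47 counts per library. The A17/+ libraries all lay above WT, by 1.27 times at the nearest. It rose 2.33-fold, from 225 ± 31.3 to 523 ± 151 CPM (SD, n = 4; log2 fold change 1.22, SE 0.21, edgeR adjusted p = 0.00352). The log2 fold change was 0.83 (adjusted p = 0.0134) with the transcript length trend removed.

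Slc25a4 had the largest fold change of the 6 members tested. Slc25a4 (ENSMUSG00000031633, chromosome 8, 46206797 to 46211284, minus strand) was counted 162, 61, 55 and 39 times in WT and 224, 695, 416 and 530 times in A17/+. These are 361, 197, 186 and 211 CPM in WT and 499, 1963, 1175 and 1511 CPM in A17/+. WT 1 stood above its group and A17/+ 1 below its own, yet the groups did not overlap. Slc25a4 rose 5.29-fold (95% interval 2.76 to 10.1; log2 fold change 2.40, SE 0.42, edgeR adjusted p = 0.00978). Its log2 fold change was 2.65 without WT 1 and 2.62 without A17/+ 1.

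Slc25a5, which lies on chromosome X (ENSMUSG00000016319, 36795651 to 36798807, plus strand), was counted 11, 9, 2 and 6 times in WT and 14, 30, 16 and 20 times in A17/+. As levels these were 24.5, 29.1, 6.77 and 32.5 CPM against 31.2, 84.7, 45.2 and 57.0 CPM. WT 4 lay above A17/+ 1, so the groups overlapped. The log2 fold change of 1.23 (fold 2.35, 95% interval 1.29 to 4.29) had an edgeR adjusted p of 0.0674. The adjusted p was 0.0208 without A17/+ 1, with both libraries numbered 1 left out it was 0.0236, and with no filter it was 0.0499. It was 0.300 with the length trend removed, where the log2 fold change was 0.63. The gene has 7 annotated copies with at least 90% identity over 200 nt, of which 3 had 6 counts in all, so the assignment of its reads is uncertain. Vdac1 had 2 such copies, Vdac2 1, Vdac3 2, Slc25a3 1, and Slc25a4 and Ucp3 0.

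The muscle and the general nucleotide carrier were compared within libraries. The 4 WT libraries, in order, had 93.6%, 87.1%, 96.5% and 86.7% of their joint counts on Slc25a4, and the 4 A17/+ libraries 94.1%, 95.9%, 96.3% and 96.4%. WT 3, with 2 counts of Slc25a5, lay above all A17/+ libraries, so the ranges overlapped. The log2 ratio of Slc25a4 to Slc25a5 averaged 4.33 ± 0.38 in A17/+ against 3.14 ± 0.73 in WT (SD, n = 4), a difference of 1.19 (95% interval −0.15 to 2.09, exact permutation p = 0.0571, adjusted over 5 ratios 0.0952). Slc25a4 against Slc25a3 gave a difference of 1.14 (−0.12 to 2.26) and against Vdac1 0.94 (−0.18 to 1.94), each with an exact permutation p of 0.0571 and an adjusted value of 0.0952. These ratios used a prior count of 2, added to the counts before the logarithm. At that setting the log2 ratio of Slc25a4 to Slc25a5 in WT 3 was 3.93, below those of A17/+ 2 to 4. With a prior count of 0.5 the difference for this pair was 1.03 (exact permutation p adjusted over 5 ratios 0.143). A larger rise of Slc25a4 than of Slc25a5, Slc25a3 or Vdac1 was therefore not shown. The smallest p that 70 assignments of 4 and 4 libraries allow is 0.0286.

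Levels of different genes were set side by side per length. As 3′ counts need not grow with length, this division can itself change the order, which is given as a description only. Per kilobase of principal transcript the WT level was 140 ± 19.4 CPM for Slc25a3, 124 ± 42.6 for Slc25a4, 84.6 ± 19.4 for Vdac1, 32.5 ± 15.6 for Vdac3, 18.7 ± 9.23 for Slc25a5, 15.7 ± 6.36 for Vdac2 and 3.73 ± 1.78 for Ucp3 (SD, n = 4). Slc25a3 and Slc25a4 lay within their spread of each other, and so did Vdac3, Slc25a5 and Vdac2. Without division by length both close orders turned. The WT means were 239 CPM for Slc25a4 and 225 for Slc25a3, and 30.6 for Vdac2 and 23.2 for Slc25a5. In A17/+ the order began with Slc25a4 at 669 ± 320.2 CPM per kilobase, followed by Slc25a3 at 324 ± 93.8 and Vdac1 at 219 ± 38.5 (SD, n = 4).

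Ucp3 (ENSMUSG00000032942, chromosome 7, 100472990 to 100486432, plus strand) was the rarest member and its libraries fell in another order. Its counts were 4, 1, 4 and 2 in WT and 28, 6, 6 and 8 in A17/+, or 8.91, 3.23, 13.5 and 10.8 CPM against 62.4, 16.9, 16.95 and 22.8 CPM. All A17/+ libraries lay above WT, but A17/+ 1 held 58.3% of the A17/+ counts, and its exact Poisson interval of 41.5 to 90.2 CPM lay above those of A17/+ 2 (6.22 to 36.9 CPM) and A17/+ 3, and overlapped that of A17/+ 4 (9.84 to 44.9 CPM). The mean was 3.26 times higher in A17/+ (two-sided exact permutation p = 0.0286, the smallest possible), and 2.07 times without A17/+ 1 (exact permutation p = 0.0571). With no filter, edgeR gave a log2 fold change of 1.71 (95% interval 0.69 to 2.73) and an adjusted p of 0.0277 over 19857 genes. An antisense gene, Gm10603, overlaps Ucp3 and had 4 counts, and the strand setting of the counting is not given in the sources used here, so a share of the reads could belong to either.

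A17/+ 1 thus had the lowest A17/+ level of all 6 other members and the highest of Ucp3. Pdk4, the kinase that shuts off pyruvate dehydrogenase when fat is burned, from the list of Ucp3 regulators and fatty acid genes and chosen after its values were seen, was also highest in A17/+ 1. Pdk4 reached 95.8, 109.9, 77.8 and 81.3 CPM in WT and 341, 184, 96.1 and 77.0 CPM in A17/+. The groups of Pdk4 overlapped, and its log2 fold change of 0.94 did not pass (edgeR adjusted p = 0.178). The fatty acid transporter Cd36 was highest in the same library, at 453 CPM against 274 to 396 CPM in A17/+ 2 to 4, whereas the fatty acid carrier Fabp3 was lowest there, at 80.3 CPM against 136 to 294 CPM.

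**Figure D3:**
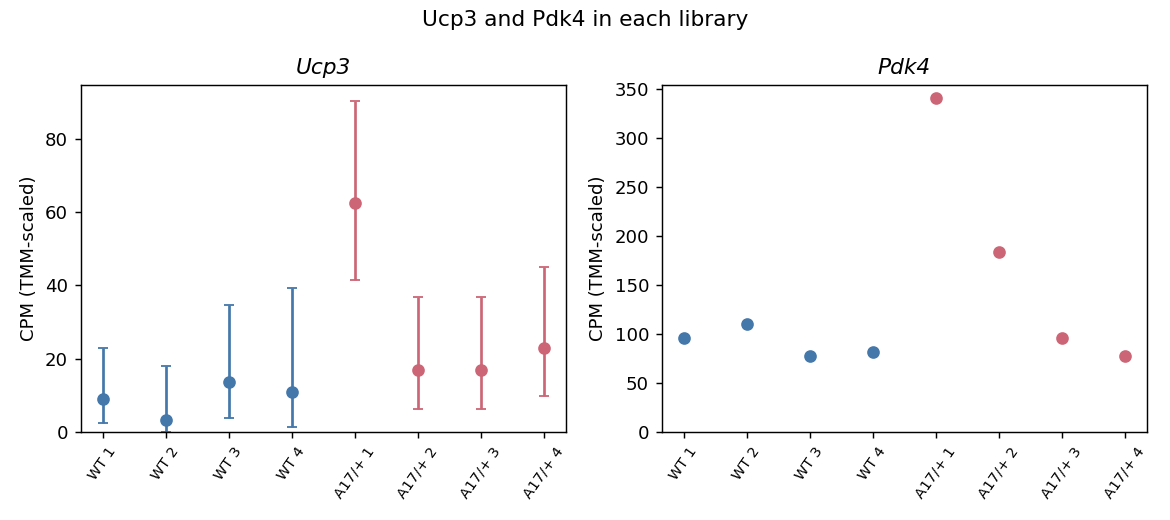
Ucp3 and Pdk4 in CPM (linear axes from 0) in each of the 8 libraries, WT in blue and A17/+ in red, with 95% exact Poisson counting intervals for Ucp3. Both genes are highest in A17/+ 1, at 62.4 and 341 CPM.

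The members varied together across libraries to different degrees. Over the 8 libraries, log2 CPM of Vdac1, Vdac2, Slc25a3 and Slc25a4 correlated with Pearson r from 0.89 to 0.96 in every pair. Slc25a5 correlated with these 4 at 0.73 to 0.82, Vdac3 with them at 0.58 to 0.72, and Ucp3 with the 6 others at 0.19 to 0.59. These values describe 8 libraries that share 1 genotype difference and differ in depth. By the same measure the tested genes were ranked for each member, leaving out predicted genes (Gm and Rik symbols) and identifiers without a symbol. Among those ranked, the genes most like Vdac1 were Perm1, a muscle regulator of mitochondrial genes (r = 0.987), Pmp22, a membrane protein of myelin (0.984), and Gsk3b, the kinase of glycogen synthase (0.982). Gsk3b (0.981), the proteasome ATPase Psmc6 (0.979) and Perm1 (0.972) were most like Vdac2, while Vdac3 was nearest to Man2c1 (0.980), Bcam (0.977) and Nop53 (0.969). Slc25a3 was nearest to the respiratory chain genes mt-Nd4 (0.980), Uqcr11 (0.973) and Uqcrc2 (0.969). Slc25a4 was nearest to Plac9a (0.996), the cytochrome oxidase subunit Cox6c (0.992) and the lysosomal protease Ctsd (0.992). Slc25a5 was nearest to Fam120a (0.975), Rnf123 (0.974) and Ptpn21 (0.958), none of which passed the test between genotypes (adjusted p from 0.176 to 0.264).

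Among the remaining carriers of the SLC25 family, Slc25a11 and Slc25a12 rose. Of 48 genes of that list (with Ucp1, Ucp2, Mtch1 and Mtch2) 14 passed the filter, 2 rose and 0 fell, against 6.34% and 2.61% of all tested genes. The list's median log2 fold change was 0.31, and that of all tested genes was 0.01. The shares of 6.34% and 2.61% are the background for the counts of the following lists as well. In this and the following lists, too, a gene could pass the filter through the A17/+ libraries alone, so that counts and medians are descriptions of the genes tested. Slc25a11, the oxoglutarate carrier, rose from 23.4 ± 13.2 to 109 ± 38.1 CPM (log2 fold change 2.13, adjusted p = 0.00343; 2.85 with both libraries numbered 1 left out). Slc25a12, an aspartate and glutamate carrier of the malate-aspartate shuttle, rose from 136 ± 72.7 to 311 ± 66.8 CPM (log2 fold change 1.13, adjusted p = 0.0218). WT 1, at 240.7 CPM of Slc25a12, lay just above A17/+ 1, at 238.5 CPM, and its call was lost without WT 2 (adjusted p = 0.0845), WT 3 (0.0953), WT 4 (0.0671), A17/+ 3 (0.0697) or A17/+ 4 (0.0832). The 12 other carriers ranged from −0.52 to 1.18 on the log2 scale.

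ATP synthase, which forms an assembly with the nucleotide and phosphate carriers, had 12 of 15 tested subunits higher and 0 lower. Of all tested genes, 6.34% were higher and 2.61% lower. The list's median log2 fold change was 2.81, and the 3 subunits not called had 0.23 to 0.41 (edgeR adjusted p from 0.126 to 0.589). Atp5k rose from 13.5 ± 2.17 to 197 ± 131 CPM (log2 fold change 3.80), and Atp5f1, a stalk subunit, from 318 ± 68.7 to 556 ± 49.3 CPM (0.79). Atp5o (3.11), Atp5c1 (2.31), Atp5j2 (3.10) and Atp5g1 (4.90) also rose, and the adjusted p of these 6 ran from 0.00324 to 0.00988. With the length trend removed the log2 fold changes were smaller for Atp5k (1.97), Atp5o (2.11), Atp5j2 (2.19) and Atp5c1 (1.61), which still passed, and 4.91 for Atp5g1. The value of Atp5g1 depends on the length used for it, 4715 nt, against 371 to 1166 nt for the subunits named before it. Whether its RNA in tongue is shorter was not tested. The call of Atp5f1 was lost without WT 3 (0.0544) and with the length trend removed (0.125, log2 fold change 0.42). Atp5g1 had no counts in WT 4.

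**Figure D4:**
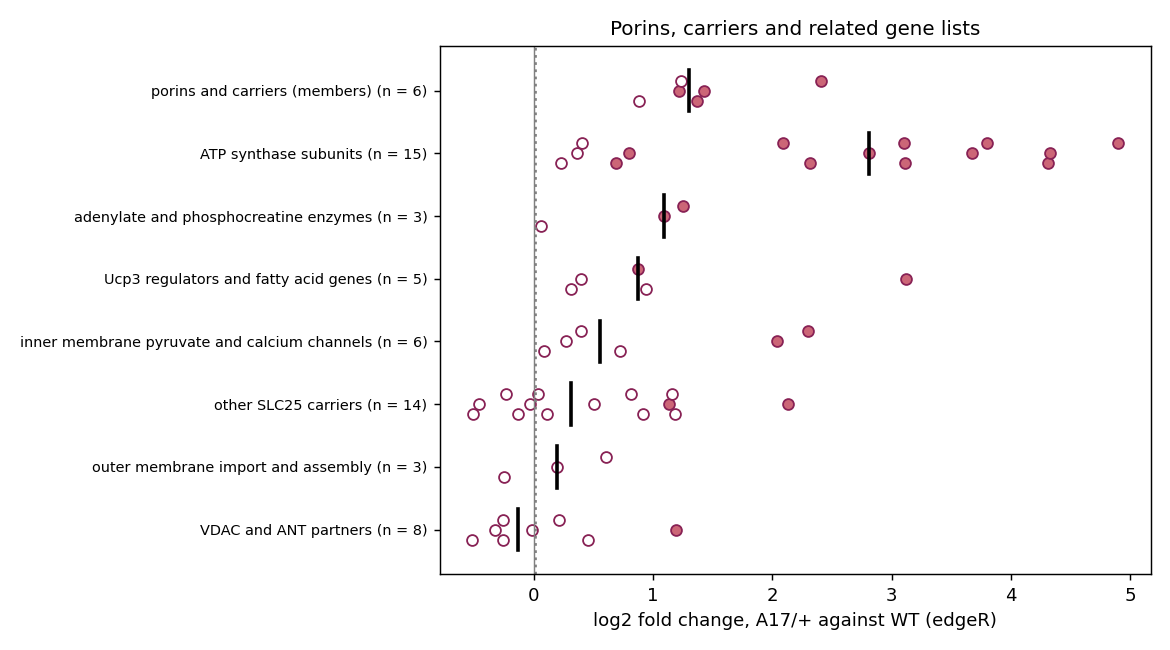
Log2 fold change of A17/+ against WT by edgeR (horizontal axis) for each tested gene of the 7 porins and carriers and of 7 related lists, filled where the adjusted p is under 0.05, with list medians as black bars and the median of all genes dotted. The members lie at 0.88 to 2.40 and ATP synthase subunits reach 4.90.

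Ckmt2, Ak1, Ckm, Mpc1 and Mpc2 rose among energy transfer genes beyond the carriers. Ckmt2, the mitochondrial creatine kinase that takes ATP delivered by the nucleotide carriers, rose from 307 ± 74.4 to 704 ± 139 CPM (log2 fold change 1.19, adjusted p = 0.00278). Ckmt2 was the only one of 8 tested porin and carrier partners that passed, 0 fell, and the median was −0.13, with the 7 others from −0.52 to 0.45. Of 3 tested adenylate and phosphocreatine enzymes 2 rose and 0 fell, with a median of 1.09. Ak1, the cytosolic adenylate kinase, rose from 118 ± 25.0 to 282 ± 66.4 CPM (1.25, adjusted p = 0.00486). Ckm, the muscle creatine kinase, rose from 1385 ± 163 to 2951 ± 918 CPM (1.09, adjusted p = 0.00629). Ckm also belongs to the striated muscle markers, and its WT 4, at 1625 CPM, lay just above its A17/+ 1, at 1614 CPM. Ak3, a mitochondrial adenylate kinase, had 0.06 (adjusted p = 0.884). Of 6 tested inner membrane pyruvate and calcium channel genes 2 rose and 0 fell, the partner subunits Mpc2 (2.04, adjusted p = 0.00486) and Mpc1 (2.30, adjusted p = 0.00566) of the pyruvate carrier, and the list's median was 0.56. The 4 others of that list, of calcium entry and ion exchange, had log2 fold changes from 0.08 to 0.72. Mpc1 was counted 9, 1, 3 and 3 times in WT and reached the filter's level in 0 of 4 WT libraries, so it was tested through the A17/+ libraries alone. With the length trend removed Mpc2 had 1.23, Mpc1 1.49, Ckmt2 0.74, Ak1 1.04 and Ckm 0.99, and all of these still passed.

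Genes that import and assemble proteins at the outer membrane gave no calls by edgeR. Of 12 only 3 were tested, with 0 higher and 0 lower and a median of 0.19; DESeq2 and limma-voom also called 0, and 1 had an unadjusted edgeR p under 0.05. Samm50, which inserts porins into the membrane, had 83.2 ± 25.9 CPM in WT and 131 ± 22.8 CPM in A17/+ (log2 fold change 0.60, adjusted p = 0.137). The import receptor Tomm70a had 0.19 (adjusted p = 0.702) and the import pore Tomm40 had −0.25 (adjusted p = 0.707). Of 5 tested Ucp3 regulators and fatty acid genes 2 rose and 0 fell, with a median of 0.87: Fabp3 (log2 fold change 3.12, adjusted p = 0.00187, and 2.12 with the length trend removed) and Cd36 (0.87, adjusted p = 0.0108, and 0.0560 without WT 3).

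The fold changes of the members were recomputed with other scalings, filters, tools and libraries. The log2 fold change was positive in each of 25 alternatives for 5 members and in each of 24 for Slc25a5, which had no value with counts thinned to the smallest library. Without the striated muscle covariate, added after the data were seen, Slc25a4 ranged from 1.97 to 2.97, Vdac1 from 1.15 to 1.63 and Slc25a3 from 0.83 to 1.37, and these 3 passed in each of those 24 alternatives. With the summed striated muscle markers as a covariate the values were 1.45, 0.84 and 1.00, with adjusted p of 0.639, 0.597 and 0.597, and edgeR called 0 of 5066 genes (410 at an unadjusted p under 0.05). The marker sums of the genotypes do not overlap, so muscle marker level and genotype cannot be told apart in these libraries.

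**Figure D5:**
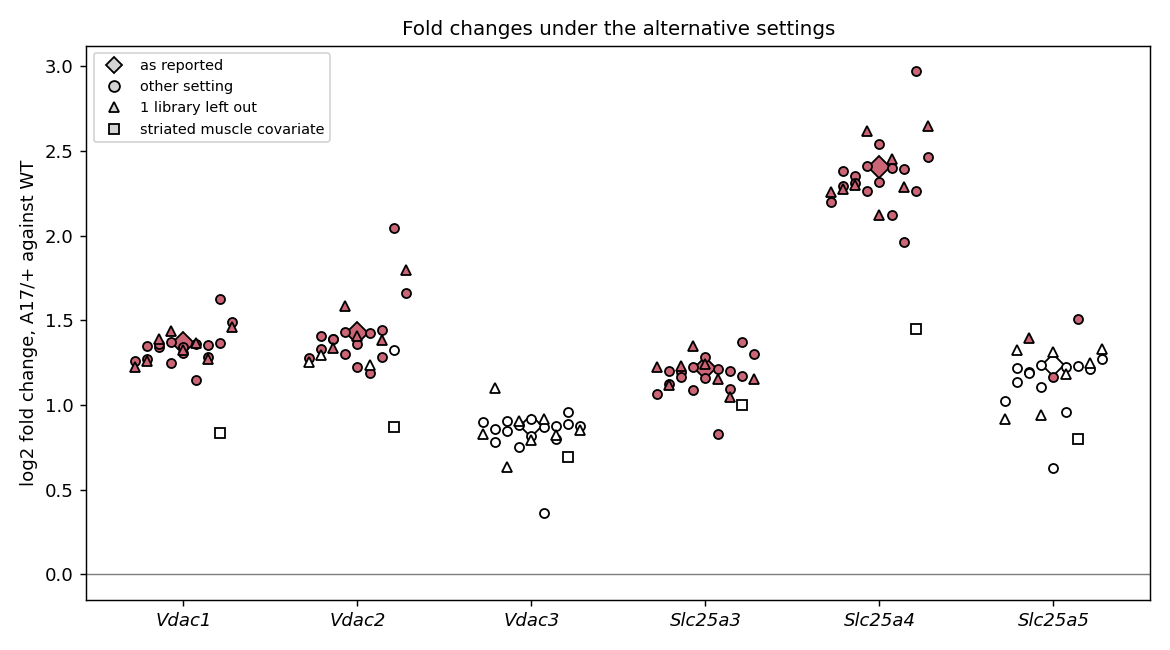
Log2 fold change (vertical axis) of the 6 tested members under each setting: as reported (diamonds), with 1 library left out (triangles), with the striated muscle covariate (squares) and under other settings (circles), filled where the adjusted p is under 0.05. All values are above 0, and the squares are open for all 6 genes.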

How the data were processed

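Bulk tongue RNA of 4 WT and 4 A17/+ mice was measured by mcSCRB-seq. The authors deposited raw UMI counts per Ensembl gene, and log2 values for 10709 genes per library. From the values, the deposited log2 column of each library is a logarithm of scaled counts plus a constant. Per the submitters' processing notes, cutadapt 2.10, STAR 2.7.5a, UMI-tools 1.1.1, HTSeq and mm10 were used; settings, strand and annotation release are not given in the sources used here. Symbols, positions and lengths (longest APPRIS principal transcript) came from GENCODE M21, for 19675 of 19857 identifiers, and promoter windows from RefSeq GRCm38.p6.

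Counts were filtered with filterByExpr (minimum count 10, minimum total count 15), given TMM factors, and tested for genotype in all 8 libraries by edgeR 4.0.16 in R 4.3.3 (robust quasi-likelihood). Benjamini-Hochberg adjustment ran over 5066 genes, with a threshold of 0.05. Single ratios and Ucp3, which lay below the filter, were tested by two-sided exact permutation. Ratios of 2 members used log2 CPM with a prior count of 2. For replicates the labels give separate numbers. The edgeR p-values set the genotype difference against the spread between these libraries, which is estimated with information from other genes. The exact permutation p-values compare it with the other assignments of these libraries to 2 groups. Library totals of 205696 to 485326 make 10 CPM a few molecules.

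All members are named. Up to 6 genes per list past the threshold, by smallest p, or 3 where none passed, are also named. So are the 3 genes most correlated with each member, leaving out predicted genes and identifiers without a symbol. Members and lists were chosen with earlier results of these data known. On simulated counts (5184 genes) the fit recovered 45.2% of 2-fold and 98.9% of 4-fold changes, and 2.17% of calls were false. These shares rest on 93 and 94 changed genes. They describe the simulated counts and are not an error rate of the calls above. Alternatives used DESeq2 1.42.0, limma 3.58.1, other scalings, filters, covariates, thinned counts and fewer libraries.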

Additional observations from a re-analysis of the deposited data

Results flagged for a closer look

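Among 70 groups of 4 libraries checked, 4 had a library whose distance to its nearest neighbour took more of the group's range than Dixon's 95% critical value, and chance alone gives such a gap in about 1 of 20 groups. Ucp3 in A17/+ 1 was at 62.4 CPM, with the other A17/+ libraries at 16.9 to 22.8 CPM. Slc25a4 in WT 1 was at 361 CPM, with the other WT libraries at 186 to 211 CPM. Vdac2 in WT 1 was at 49.0 CPM, with the others at 22.6 to 27.1 CPM, and its share of porin counts there was 16.1%, with the others at 10.3% to 11.1%. WT 1 is the library with 2057 CPM of salivary gland markers and the largest WT total, 465014 counts. The part of either in these values was not tested.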

How the results depend on the processing

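The count of 4 members that rose stayed between 3 and 6 in the other alternatives, from 3 to 5 when 1 library was left out, and was 0 with the striated muscle covariate, whose sums do not overlap between genotypes. The 321 genes higher and 132 lower became 615 and 238 with no filter, 152 and 81 by limma-voom, 499 and 365 with sample weights, 538 and 259 by limma-trend on the deposited log2 values, and 484 and 246 on the genes of those values. They were 0 and 0 with the striated muscle covariate, 695 and 330 with both libraries numbered 1 left out, and 487 and 288 at an adjusted p under 0.1. The genes lower were 289 with library totals only, 235 with the length trend removed and 240 with the tongue epithelium covariate. Leaving out 1 library gave 172 to 586 higher and 38 to 383 lower. The cause of these changes was not tested.

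With library totals the median of all genes moved by −0.12 on the log2 scale, 49.1% of calls were higher against 70.9% as reported, and with the length trend removed 52.4%. With sample weights it was 57.8%, with the epithelium covariate 60%. Leaving out WT 1, WT 3 or A17/+ 2 gave 57.0%, 81.9% and 57.8%.

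With the replicate number as a block, 4 members, 311 genes higher and 99 lower were called. Deviations of equally numbered libraries correlated at 0.004, 0.07, −0.10 and −0.16, and the labels do not say that numbers pair animals.

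Among single values, Tomm70a became −0.11 with the striated muscle covariate and ranged from −0.11 (without A17/+ 4) to 0.32 (without A17/+ 2) when 1 library was left out, Tomm40 0.10 with both libraries numbered 1 left out, and the log2 ratio difference of Vdac1 to Vdac2 0.10 without WT 4 and 0.15 without A17/+ 3. None of these passed. Samm50 passed with both libraries numbered 1 left out (adjusted p = 0.0488), and Pdk4 with no filter (0.0130) and with the epithelium covariate (0.0458). Ucp3 had an exact permutation p of 0.200 with counts thinned to the smallest library. The exact permutation p of Ucp3 was 0.114 without WT 1, WT 2 or WT 4 and 0.0857 without WT 3. With as many assignments, it was 0.0571 without A17/+ 1 and 0.0286 without A17/+ 2, A17/+ 3 or A17/+ 4. Ucp3, which edgeR called with no filter, did not pass in edgeR when testing was restricted to genes with a log2 value (1.67, adjusted p = 0.0632), nor by limma-trend (1.08, 0.102). Ucp3, Slc25a5, Vdac2 and Vdac3 rest on 1 to 22 counts per WT library, which limits their precision.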
